A study of Mus musculus with 32 samples.

Results

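The mouse T-cell receptor gamma locus was followed through 7 of its genes, the variable segments Tcrg-V1, Tcrg-V4, Tcrg-V5 and Tcrg-V6 and the constant genes Tcrg-C1, Tcrg-C2 and Tcrg-C4. They were chosen by name, as the gamma variable and constant segments, out of 19404 genes listed at embryonic day E15.5 and 26244 at E19.5. The tables hold 15 annotated gamma locus genes in all, and the other 8 (further variable, constant and joining segments) are used here to complete the picture. RNA was sequenced in bulk from cells sorted by flow cytometry from the thymus of embryos of the reporter strain 5x polychromILC, which every group shares. Most groups are DN1 cells, the first thymocyte stage without CD4 or CD8, sorted on reporters for BCL11b, a transcription factor of T-cell commitment, and for ID2, an inhibitor of E proteins that marks innate lymphoid cells. The groups were DN2 cells (the stage after DN1), BCL11blowID2low (E19.5 alone), BCL11b+ID2+, BCL11b+ID2-, BCL11b-ID2+ and BCL11b-ID2-. Each group had 3 libraries except DN2 at E15.5, which had 2, for 14 E15.5 and 18 E19.5 libraries. No source used here says that libraries of a group came from separate embryos, and a p-value then speaks for variation among these libraries alone, which could be technical. Comparisons of a stage share libraries, so they are not independent of each other. The make-up of the reporter alleles and the number of embryos pooled per library are not given there either.

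A gamma chain is built by joining a variable to a joining segment, and this V-J exon is spliced to the constant gene of its own cluster. In the mouse, Tcrg-V4, Tcrg-V5, Tcrg-V6 and Tcrg-V7 rearrange to the joining segment ahead of Tcrg-C1, Trgv2 to that of Tcrg-C2, Tcrg-V3 to that of Tcrg-C3 and Tcrg-V1 to that of Tcrg-C4. The segments are used in waves: chains with Tcrg-V5 seed the epidermis and chains with Tcrg-V6 seed mucosal tissues from the fetal thymus, and chains with Tcrg-V4 or Tcrg-V1 come later and continue after birth. Constant genes can also be transcribed before any joining, as sterile transcripts that accompany opening of the locus, so constant gene RNA does not by itself report a complete chain. In bulk RNA, fewer cells of a type and less RNA per cell cannot be told apart.

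The 7 genes lie on chromosome 13 (GRCm38, GENCODE M21 annotation). On the plus strand, Tcrg-V4 spans 19184974-19185506, Tcrg-V6 spans 19190356-19190929, Tcrg-V5 spans 19192278-19192725 and Tcrg-C1 spans 19214103-19217024. Tcrg-C2 lies on the minus strand at 19304649-19307551, and Tcrg-V1 at 19339989-19340454 and Tcrg-C4 at 19344558-19352756 are again on the plus strand. The last 60 coding bases of each variable segment, 5′ to 3′ from the GENCODE transcript sequences, cover the end that joins to a J segment. After the cysteine codon Tcrg-V5 and Tcrg-V6 are much alike, while the bases before it differ more. Capitals mark the codon of the conserved cysteine that opens the third complementarity-determining region.

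Tcrg-V1 (chr13:19340395-19340454, plus strand): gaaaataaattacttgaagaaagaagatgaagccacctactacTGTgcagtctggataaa

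Tcrg-V4 (chr13:19185447-19185506, plus strand): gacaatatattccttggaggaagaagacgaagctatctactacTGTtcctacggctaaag

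Tcrg-V5 (chr13:19192666-19192725, plus strand): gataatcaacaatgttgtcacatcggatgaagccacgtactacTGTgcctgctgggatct

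Tcrg-V6 (chr13:19190870-19190929, plus strand): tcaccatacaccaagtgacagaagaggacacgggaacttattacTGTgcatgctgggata

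Over its second exon Tcrg-V1 was 68.1% identical to Tcrg-V4, 50.6% to Tcrg-V5 and 46.8% to Tcrg-V6. It was 95.1% identical to Trgv2 and 94.8% to Tcrg-V3. The first 120 bases of constant exon 1 are shown next because likeness there limits how well reads of the constant genes can be separated. Capitals mark the bases that differ from Tcrg-C1.

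Tcrg-C1 (chr13:19214103-19214222, plus strand): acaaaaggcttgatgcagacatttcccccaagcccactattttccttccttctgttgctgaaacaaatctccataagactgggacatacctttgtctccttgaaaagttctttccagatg

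Tcrg-C2 (chr13:19307432-19307551, minus strand): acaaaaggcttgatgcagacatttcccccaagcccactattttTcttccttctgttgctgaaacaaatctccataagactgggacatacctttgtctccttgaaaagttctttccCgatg

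Tcrg-C4 (chr13:19344558-19344677, plus strand): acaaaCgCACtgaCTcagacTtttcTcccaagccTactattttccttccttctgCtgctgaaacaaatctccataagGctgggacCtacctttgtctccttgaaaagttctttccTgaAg

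Tcrg-C2 differed from Tcrg-C1 at 2 of these 120 bases and Tcrg-C4 at 14. Over all of exon 1, Tcrg-C2 was 97.3% and Tcrg-C4 82.1% identical to Tcrg-C1. The genes part further in their short middle exons, which encode the region between the constant domain and the membrane. Exon 2 of each is shown because the lengths differ. Tcrg-C4 also has a middle exon 3 of 45 bases (chr13:19350330-19350374), which is not shown.

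Tcrg-C1 exon 2 (chr13:19215864-19215908, plus strand): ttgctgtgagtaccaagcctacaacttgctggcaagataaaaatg

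Tcrg-C2 exon 2 (chr13:19305769-19305798, minus strand): ttgctacaacttgctggcaagataaaaatg

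Tcrg-C4 exon 2 (chr13:19349536-19349589, plus strand): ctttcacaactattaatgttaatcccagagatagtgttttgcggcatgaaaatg

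Exon 2 was 45 bases long in Tcrg-C1, 30 in Tcrg-C2 and 54 in Tcrg-C4. Of all 50-base windows of each transcript, 34.2% of those of Tcrg-C1 and 25.4% of those of Tcrg-C2 occurred letter for letter in another gene, and these were Tcrg-C3 and each other. For Tcrg-C4, Tcrg-V5 and Tcrg-V6 there were 0 such windows, for Tcrg-V4 1.86% were shared with Gm31887, and for Tcrg-V1 24.6% were shared with Tcrg-V3 and Trgv2. How reads that match several genes were counted, and whether strand was used, are not given in the sources used here. The values of Tcrg-C1, Tcrg-C2 and Tcrg-V1 are therefore uncertain to the extent that reads were split with these near copies, while Tcrg-C4, Tcrg-V5 and Tcrg-V6 share no such window.

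Values are the deposited normalised read counts, written as normalised counts below, and each stage has its own table, so no level is compared across stages. An E15.5 library held 12030749 to 20709387 reads, of which the 7 genes together took 3911 to 42529, and an E19.5 library held 2599470 to 9498133, of which they took 336 to 8763. Mitochondrial ribosomal RNA took 50.8 to 80% of the reads at E15.5 and 28.7 to 58.8% in the later stage. The floor of 3 reads was worth 1.68 to 4.91 normalised counts in an E15.5 library and 1.77 to 5.34 in an E19.5 library, and all floors and intervals here cover counting error only. At E15.5, Bcl11b was at 871 to 5511 in the BCL11b-positive gates and DN2 cells and at 6.39 to 509 in the negative gates. Id2 was at 85 to 2771 in the ID2-positive and 0 to 126 in the other gates of that stage. At E19.5, Bcl11b was at 376 to 2076 in the BCL11b-positive, BCL11b-low and DN2 gates and 2.89 to 39.2 in the negative ones, and Id2 at 961 to 1541 in the ID2-positive, 159 to 183 in the ID2-low and 1.41 to 32.1 in the other gates. Library 1 of BCL11b-ID2+ at E15.5, with Bcl11b at 509, and library 3 of BCL11b+ID2+, with Id2 at 2771, stood apart from their groups. Segment calls that rest on those libraries are also given without them, and calls of other genes are not. Id2 RNA did not fully separate the E15.5 gates: BCL11b+ID2+ library 1, at 85, lay below BCL11b-ID2- library 1, at 126. The progenitor and leukocyte markers Ptprc, Kit, Cd44, Il2ra, Notch1, Tcf7, Gata3 and Thy1 were read in every group and summed to 9190 to 42851 normalised counts in E15.5 and 5755 to 18455 in E19.5 libraries, in both cases highest in DN2 libraries.

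At E15.5, RNA of Tcrg-C4, the constant gene that serves Tcrg-V1, followed the ID2 reporter. BCL11b+ID2+ libraries had 5723, 3322 and 8763 normalised counts, and BCL11b+ID2- libraries had 407, 54.4 and 36.4. BCL11b-ID2+ libraries had 1887, 3405 and 2127, against 15.6, 11.9 and 4.05 in BCL11b-ID2- libraries, and DN2 libraries had 17.8 and 58.8. Every ID2-positive library was above every other library of the stage.

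Tcrg-C4 averaged 5936 ± 2727 normalised counts in BCL11b+ID2+ cells and 165.8 ± 209 in BCL11b+ID2- cells (SD, n = 3 each), a 35.8-fold difference of the means that was 131-fold without BCL11b+ID2- library 1. On the log2(value + 1) scale it was higher by 5.86 (SE 1.33, adjusted p = 0.0341, limma with Benjamini-Hochberg adjustment over all genes). Among BCL11b-negative cells it averaged 2473 ± 816 in BCL11b-ID2+ cells and 10.5 ± 5.91 in BCL11b-ID2- cells, 235-fold higher (log2 difference 7.86, SE 1.33, adjusted p = 0.0058). Limma called 1 of the 6 tested segments in the first of these comparisons, where it called 0.719% of all 10289 genes (0.398% higher and 0.321% lower). In the second it called 2, where it called 0.467% of all genes (0.321% higher and 0.146% lower). The seventh, Tcrg-V6, had too few reads to be tested at this stage. The first call ended without BCL11b+ID2+ library 1, 2 or 3 and without BCL11b+ID2- library 2 or 3 (adjusted p 0.0479 to 0.13 over the 6 omissions), and with no filter or the compared groups alone (up to 0.0602). The second ended without BCL11b-ID2+ library 2 or BCL11b-ID2- library 3 (0.0184 to 0.051), and without library 1 of BCL11b-ID2+ it held at 8.04 (adjusted p = 0.0361).

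**Figure D1:**
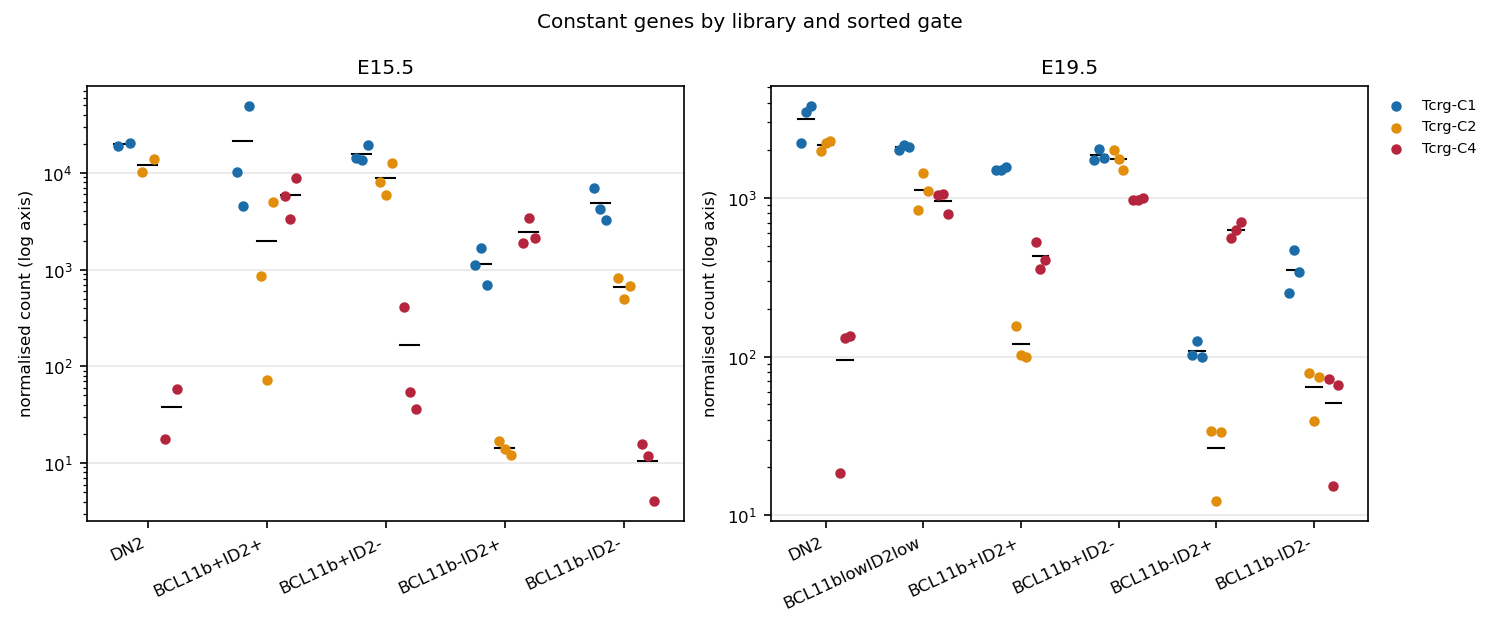
Normalised counts of Tcrg-C1, Tcrg-C2 and Tcrg-C4 in each library (points) with the group mean (short line), on a log axis, for the groups of E15.5 and E19.5 in separate panels. Tcrg-C4 was lowest in DN2 and BCL11b-ID2- cells at both stages, and at E15.5 also low in BCL11b+ID2- cells.

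Tcrg-C2, the constant gene that serves Trgv2, was lower in the ID2-positive gate within each BCL11b state at E15.5. Across the states it did not follow ID2, as BCL11b+ID2+ and BCL11b-ID2- libraries overlapped. BCL11b-ID2+ libraries had 16.8, 14.1 and 12 normalised counts, against 826, 494 and 677 in BCL11b-ID2- libraries, with no overlap. The means of 14.3 ± 2.41 and 665.7 ± 167 made Tcrg-C2 46.6-fold lower in BCL11b-ID2+ cells (log2 difference -5.43, SE 1.09, adjusted p = 0.0179). Leaving out any 1 of the 6 libraries ended this call, with adjusted p of 0.0563 to 0.12 and log2 differences of -5.63 to -4.89, and it also ended with no filter or the compared groups alone (up to 0.115). BCL11b+ID2+ libraries had 868, 71.6 and 5038, against 8057, 5918 and 12629 in BCL11b+ID2- libraries. These groups did not overlap either, but the test was not passed (log2 difference -3.63, SE 1.09, adjusted p = 0.122). Without BCL11b+ID2+ library 3, the one with the highest Tcrg-C2 of its group, the difference was -5.07 and passed (adjusted p = 0.0359).

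Tcrg-C1, which serves the earliest fetal variable segments, was the most abundant of the 3 constant genes per kilobase of transcript in every E15.5 group except BCL11b-ID2+. BCL11b+ID2+ libraries had 10281, 4579.8 and 49498 normalised counts and BCL11b+ID2- libraries had 14309, 13484 and 19435. These groups overlapped, and the sign of the difference depends on the scale: the mean was 1.36-fold higher in BCL11b+ID2+ cells, through library 3, while the log2 difference was -0.23 (adjusted p = 0.93). BCL11b-ID2+ libraries had 1108, 1668 and 692, all under the 6957, 4284 and 3282 of BCL11b-ID2- libraries, with a log2 difference of -2.08 that did not pass (SE 0.58, adjusted p = 0.126).

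Set between the ID2-positive gates, Tcrg-C1 was 18.6-fold higher in BCL11b+ID2+ cells than in BCL11b-ID2+ cells (log2 difference 3.61, SE 0.58, adjusted p = 0.00616). Tcrg-C2 was 140-fold higher (5.49, SE 1.09, adjusted p = 0.0402), and Tcrg-C4, whose groups overlapped, differed by 1.2 (SE 1.33, adjusted p = 0.832). So 2 of 6 segments were called where limma called 0.0778% of all genes, 0.0389% in each direction. Over all genes the median was -0.44 here. Without BCL11b+ID2+ library 3, Tcrg-C1 was higher by 2.66 (adjusted p = 0.0435) and Tcrg-C2 by 4.05, which no longer passed (adjusted p = 0.188). Without BCL11b-ID2+ library 1 the values were 3.62 (adjusted p = 0.0387) and 5.61 (adjusted p = 0.0869). The Tcrg-C1 call ended without BCL11b-ID2+ library 3 (0.0706), and the Tcrg-C2 call ended without BCL11b+ID2+ library 1 or 3 or any 1 of the BCL11b-ID2+ libraries. With the compared groups alone both calls ended (adjusted p = 0.317 and 0.649), and with no filter that of Tcrg-C2 did. Without BCL11b+ID2+ library 3 the folds of the means were 6.43 and 32.9.

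Among ID2-negative cells, all 3 constant genes were higher in every BCL11b+ID2- library than in any BCL11b-ID2- library. The means differed 3.25-fold for Tcrg-C1, 13.3-fold for Tcrg-C2 and 15.8-fold for Tcrg-C4, or 4.31-fold for Tcrg-C4 without BCL11b+ID2- library 1. Limma called 0 of the 6 tested segments (3 at an unadjusted p under 0.05), edgeR 0 and DESeq2 3, and limma called 0.00972% of all genes in this comparison. Between DN2 and BCL11b+ID2- cells, Tcrg-C1 was at 18858 and 20522 in DN2 libraries and Tcrg-C2 at 10162 and 13816, within or near the range of BCL11b+ID2- libraries. There, limma called 0 segments (0 at an unadjusted p under 0.05), edgeR 0 and DESeq2 0, with 0% of all genes called by limma.

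The share of each constant gene in the sum of the 3, after dividing by transcript length, also separated the E15.5 gates. Tcrg-C4 took 32.5, 40.1 and 13.1% in BCL11b+ID2+ libraries and 1.67, 0.261 and 0.106% in BCL11b+ID2- libraries. It took 61.1, 65.5 and 73.9% in BCL11b-ID2+ libraries, against 0.188, 0.232 and 0.0956% in BCL11b-ID2- libraries, and 0.0572 and 0.16% in DN2 libraries. Tcrg-C2 averaged 37.8% in DN2 cells, 4.78 ± 3.62% in BCL11b+ID2+ cells, 35.3 ± 4.49% in BCL11b+ID2- cells, 0.442 ± 0.147% in BCL11b-ID2+ cells and 12.8 ± 3.86% in BCL11b-ID2- cells. BCL11b-ID2- cells were the group in which Tcrg-C1 held the largest share, 87 ± 3.8%.

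**Figure D2:**
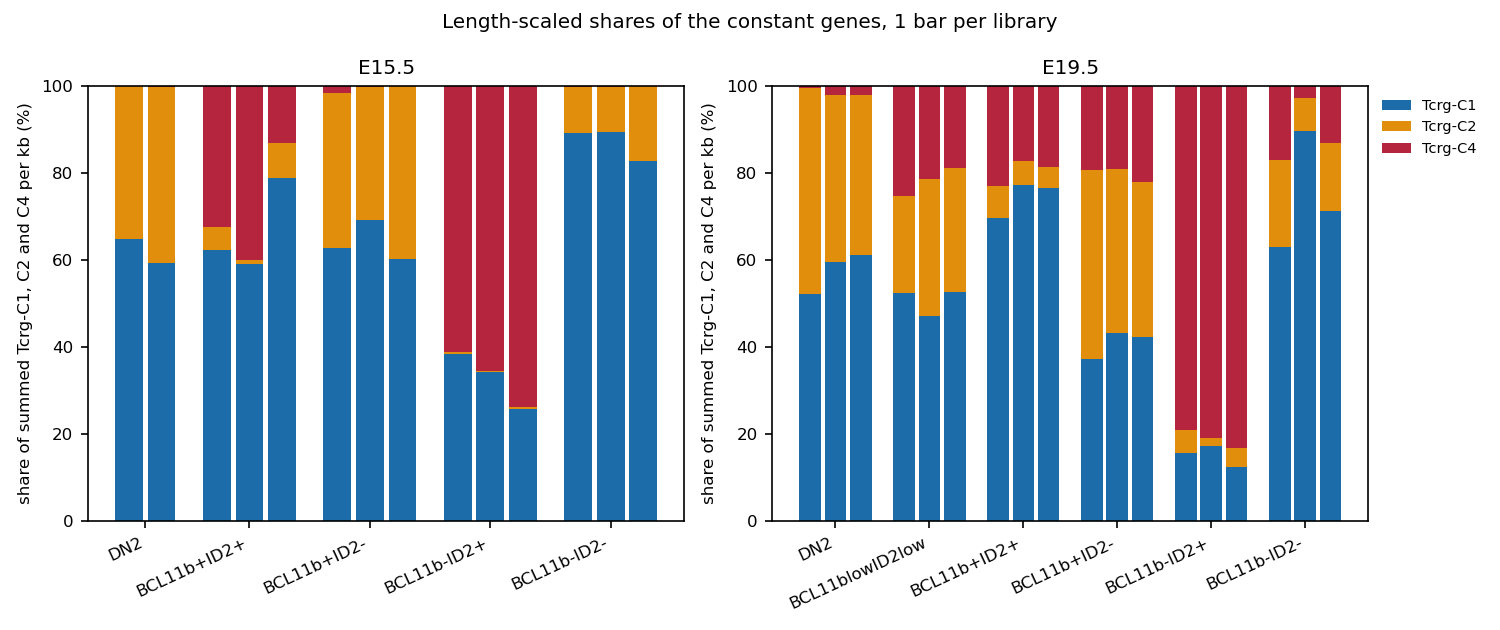
Stacked bars give, for each library, the percentage of Tcrg-C1, Tcrg-C2 and Tcrg-C4 in their length-scaled sum at E15.5 and E19.5. Tcrg-C4 held 61.1 to 73.9% in the E15.5 and 79.1 to 83.3% in the E19.5 libraries of BCL11b-ID2+ cells.

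The variable segments were close to the counting floor at E15.5. Of 56 library values of Tcrg-V1, Tcrg-V4, Tcrg-V5 and Tcrg-V6, 24 were at 0 and 33 rested on fewer than 10 reads, with 1408 reads in all. Tcrg-V1 had 296, 203 and 26.2 normalised counts in BCL11b+ID2+ libraries and 0, 132 and 0 in BCL11b+ID2- libraries. In BCL11b-ID2+ libraries it had 29.6, 59.8 and 29.0, against 0 reads in all 3 BCL11b-ID2- libraries, so it was at least 57.9-fold higher, taking a floor of 3 reads over the group. Tcrg-V1 was thus read in all 6 ID2-positive libraries in 1 of the 6 ID2-negative DN1 libraries and, at 4.78, in 1 of the 2 DN2 libraries. It passed no test (adjusted p = 0.371 in the BCL11b-positive and 0.385 in the BCL11b-negative pair of gates). Its joining segment Trgj4 was read in the same 6 libraries, at 149.9, 59.3 and 16.4 in BCL11b+ID2+ and 35.2, 35.2 and 56.7 in BCL11b-ID2+ libraries, and otherwise in 1 BCL11b+ID2- library at 18.9.

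Tcrg-V4 had 54.0, 22.9 and 0 normalised counts in BCL11b+ID2+ libraries and 7.29, 23.9 and 34.8 in BCL11b+ID2- libraries, and its other values were 27.0 or less. Tcrg-V5 was at 38.0 or less in every library. The E15.5 gates overlapped in Tcrg-V4 in each comparison, and no difference of Tcrg-V4 or Tcrg-V5 passed (adjusted p from 0.705 up). Tcrg-V6 was read in 3 of 14 libraries. Most of it lay in BCL11b-ID2+ library 1, with 65.5 normalised counts, the library that also had Bcl11b at 509. Expressed per 100 of length-scaled constant gene RNA, the 4 variable segments came to 5.16, 7.81 and 0.103 in BCL11b+ID2+ libraries and 0.13, 2.02 and 0.553 in BCL11b+ID2- libraries. The ratio was 8.91, 4.24 and 4.11 in BCL11b-ID2+ libraries, against 0, 0 and 1.05 in BCL11b-ID2- libraries, and 0.217 and 0.292 in DN2 libraries. With all annotated variable and constant genes it was 2.91 in BCL11b+ID2- library 1, 3.22 in BCL11b-ID2- library 3 and 7.76 in DN2 library 2, against 0.222 in DN2 library 1.

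A few genes of the recombination and gamma-delta lists were called beside Tcrg-C4 at E15.5. Limma called 0.719% of all genes in the first comparison below and 0.467% in the second. In BCL11b+ID2+ against BCL11b+ID2- cells, 2 of 13 tested rearrangement genes fell, the recombinase genes Rag2 (log2 difference -7.59, adjusted p = 0.00673) and Rag1 (-6.97, adjusted p = 0.0159). The list's median log2 difference was -2.63, against -0.22 over all genes. Of 13 gamma-delta regulators and effector genes 2 rose, Cd163l1, a scavenger receptor gene (6.45, adjusted p = 0.0361), and Maf, a transcription factor of interleukin-17 producing cells (6.40, adjusted p = 0.00403), with a list median of 1.97. In BCL11b-ID2+ against BCL11b-ID2- cells, Rag2 fell (-6.66, adjusted p = 0.0188), and Il2rb, a receptor chain of NK and T cells (9.92, adjusted p = 0.00613), and Cd163l1 (8.0, adjusted p = 0.0111) rose. The list medians were 0.09 and 1.13, against -0.14 over all genes. Cd163l1 had 5837, 4629.6 and 4384 normalised counts in BCL11b+ID2+ libraries and 52.5, 242 and 12.7 in BCL11b+ID2- libraries. These gene calls were not repeated without single libraries. Over all genes, the first comparison had 74 calls, and 15 without BCL11b+ID2+ library 3. The second had 48, and 15 without BCL11b-ID2+ library 1.

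Of the 9 tested receptor partner and signalling genes (the delta and CD3 chains and the first kinases and adaptors), limma called 0 in each of the 6 comparisons of E15.5, with 0 to 4 at an unadjusted p under 0.05, edgeR 0 and DESeq2 0 to 3. Of 3 tested alpha-beta receptor genes it also called 0 in each, with 0 to 2 at an unadjusted p under 0.05, edgeR 0 and DESeq2 0 or 1. In the 4 other E15.5 comparisons limma called 0 rearrangement and 0 gamma-delta genes, with 1 to 3 and 1 to 5 at an unadjusted p under 0.05, edgeR 0 and DESeq2 1 or 2.

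Markers of NK cells and of group 2 innate lymphoid cells (ILC2) were summed in the same E15.5 gates. The 6 NK markers summed to 4766 to 6921 normalised counts in BCL11b-ID2+ libraries and 2.64 to 9.95 in BCL11b-ID2- libraries, where Prf1 was at 0. Of 4 tested NK markers 3 rose there (Klrk1, Ncr1 and Klrb1c). In BCL11b+ID2+ libraries the sum was 213 to 3316, and in BCL11b+ID2- libraries it was 3.64 to 8.70, with Prf1 at 0 in both. Limma called 0 of the 4 there (1 at an unadjusted p under 0.05), edgeR 1 and DESeq2 1. The 6 ILC2 markers summed to 12937 to 13998 in BCL11b+ID2+ libraries, against 516 to 1959 in BCL11b+ID2- libraries with Klrg1 at 0, and to 2068 to 6724 in BCL11b-ID2+ against 95.2 to 995 in BCL11b-ID2- libraries, again with Klrg1 at 0. Of 5 tested ILC2 markers Rora alone passed in each of these comparisons, higher in the ID2-positive gate. Epithelial and stromal markers summed to 1 to 52.6 in BCL11b+ID2+ libraries, with Krt5 and Krt8 at 0, and 315 to 961 in BCL11b+ID2- libraries, and to 2.34 to 66.3 in BCL11b-ID2+ and 522 to 1827 in BCL11b-ID2- libraries. Of 2 tested, limma called 0 in BCL11b+ID2+ against BCL11b+ID2- cells (1 at an unadjusted p under 0.05), edgeR 0 and DESeq2 1, and Pdgfrb fell in BCL11b-ID2+ against BCL11b-ID2- cells. Mpo fell there too. It belongs to the macrophage and granulocyte markers, which summed to 1.17 to 144 in BCL11b-ID2+ and 358 to 721 in BCL11b-ID2- libraries. Mast cell and erythroid markers summed to 2 to 14.7 in BCL11b+ID2+ libraries and 345 to 1756 in BCL11b+ID2- libraries, and Cpa3 fell there. In BCL11b+ID2+ against BCL11b-ID2+ cells, Ncr1 of the NK markers and Cpa3 fell. Mast cell and erythroid markers summed to 1150 to 3752 in BCL11b-ID2+ libraries. Of 5 tested ILC2 markers limma called 0 between these gates (1 at an unadjusted p under 0.05), edgeR 0 and DESeq2 0. The part of any of these lists in the E15.5 differences of Tcrg-C1, Tcrg-C2 and Tcrg-C4 was not tested.

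Among BCL11b-positive cells at E19.5, Tcrg-C4 was the only constant gene whose log2 difference had another sign than at E15.5. Tcrg-C4 had 527, 357 and 409 normalised counts in BCL11b+ID2+ libraries, all under the 972, 971 and 1006 of BCL11b+ID2- libraries. The difference of -1.21 (SE 0.54) did not pass (adjusted p = 0.198). Tcrg-C2 did pass: BCL11b+ID2+ libraries had 157, 103 and 99.6, against 2015, 1763 and 1502 in BCL11b+ID2- libraries, 14.7-fold lower with no overlap (log2 difference -3.89, SE 0.34, adjusted p = 6.6e-08). Tcrg-C1 was at 1494, 1494 and 1577 in BCL11b+ID2+ libraries and at 1748, 2049 and 1799 in BCL11b+ID2- libraries, a 1.23-fold lower mean that did not pass (-0.29, SE 0.22, adjusted p = 0.501).

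Of the 4 variable segments, Tcrg-V4 alone passed between these gates. It had 21.4, 22.1 and 9.23 normalised counts in BCL11b+ID2+ libraries and 531, 428 and 335 in BCL11b+ID2- libraries. The means of 17.6 ± 7.23 and 431.5 ± 98.1 differed 24.6-fold (log2 difference -4.61, SE 0.76, adjusted p = 0.000253). Both this call and that of Tcrg-C2 held in each of 7 alternative fits and with any 1 of the 6 libraries left out.

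Tcrg-V1 had 30.3, 33.2 and 12.5 normalised counts in BCL11b+ID2+ libraries, all under the 98.9, 73.9 and 84.9 of BCL11b+ID2- libraries (log2 difference -1.82, SE 0.73), and did not pass (adjusted p = 0.136). Tcrg-V5 had 19.6, 14.4 and 12.5 in BCL11b+ID2+ libraries and 17.4, 21.4 and 20.3 in BCL11b+ID2- libraries, with overlap. Tcrg-V6 had 40.9, 29.8 and 7.91 in BCL11b+ID2+ libraries and 50.3, 111 and 36.9 in BCL11b+ID2- libraries, also with overlap. In all, 2 of 7 segments were called, both lower, where limma called 8.73% of all 13840 genes, 3.61% lower and 5.12% higher.

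**Figure D3:**
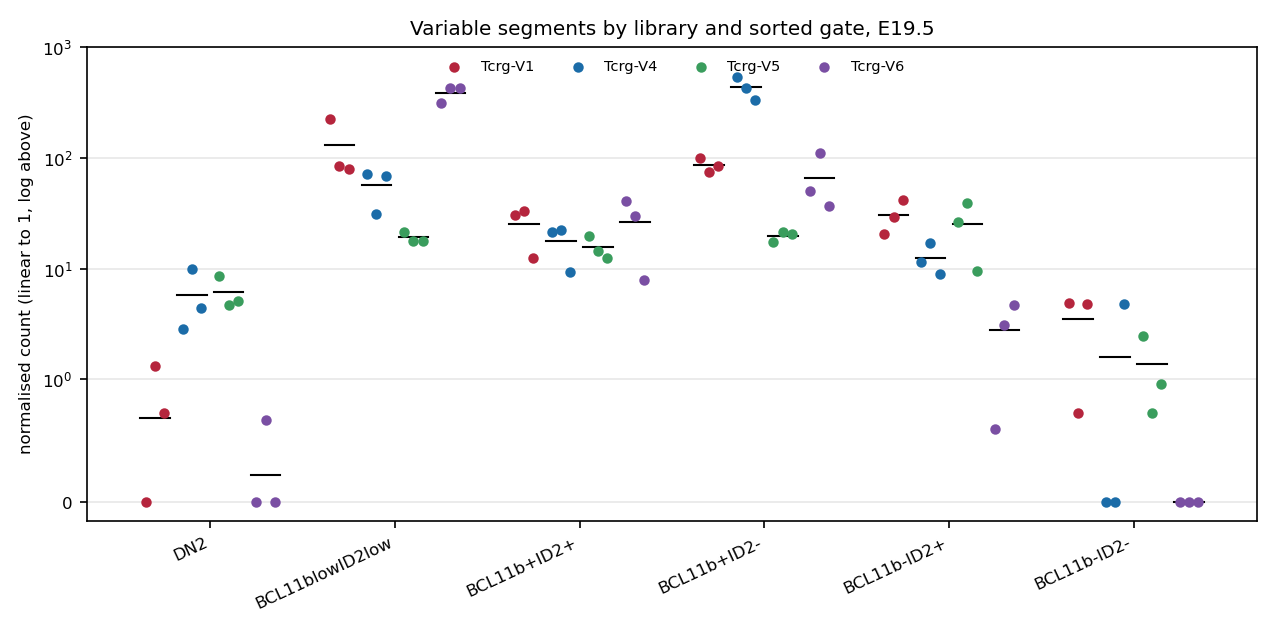
Normalised counts of Tcrg-V1, Tcrg-V4, Tcrg-V5 and Tcrg-V6 per library at E19.5 (points, with the group mean as a short line) by group, on an axis that is linear up to 1 and logarithmic above. Tcrg-V4 reached 335 to 531 in BCL11b+ID2- libraries and Tcrg-V6 reached 315 to 425 in BCL11blowID2low libraries.

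Receptor partner genes fell together with Tcrg-V4 and Tcrg-C2 in BCL11b+ID2+ cells: 7 of 12 tested fell, led by Trdv5, a delta variable segment (-6.80, adjusted p = 2.07e-05), Cd3d (-3.34), Trdc, the delta constant gene (-3.15), and Cd247, the zeta signalling chain (-2.78). The list median was -1.37, against 0.00 over all genes. Among 19 gamma-delta genes 8 fell and 2 rose, with a median of -1.49. The largest differences were those of Etv5 (-7.72), Sox13 (-5.97) and 5830411N06Rik (-5.41) and, upwards, the chemokine receptor gene Ccr6 (4.87). Of 16 rearrangement genes 4 fell and 2 rose (median -0.56), with Il7r, the interleukin-7 receptor chain that supports gamma rearrangement, at 3.28 and the ligase gene Lig4 at -2.52. Of 9 alpha-beta receptor genes 5 fell (median -1.83), among them Cd6 (-3.51) and Trac (-3.22). ILC2 markers summed to 6390 to 7504 normalised counts in BCL11b+ID2+ libraries and 1803 to 2043 in BCL11b+ID2- libraries, where Klrg1 was at 0, and 4 of 6 rose. Macrophage and granulocyte markers summed to 177 to 360 in BCL11b+ID2+ libraries, with Elane at 0, and to 3.21 to 5.53 in BCL11b+ID2- libraries. The part of either in the segment differences was not tested.

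Among BCL11b-negative cells at E19.5, BCL11b-ID2+ cells had more Tcrg-C4 and less Tcrg-C1 and Tcrg-C2 than BCL11b-ID2- cells. Tcrg-C4 had 556, 627 and 706 normalised counts in BCL11b-ID2+ libraries, against 72.0, 15.2 and 66.3 in BCL11b-ID2- libraries, 12.3-fold higher (log2 difference 3.87, SE 0.54, adjusted p = 1.67e-05). Tcrg-C1 had 103, 125 and 99.2 in BCL11b-ID2+ libraries, against 251, 471 and 340.0 in BCL11b-ID2- libraries, 3.24-fold lower (-1.65, SE 0.22, adjusted p = 6.88e-06). Tcrg-C2 had 34.1, 12.3 and 33.7 in BCL11b-ID2+ libraries, against 79.3, 39.1 and 74.9 in BCL11b-ID2- libraries, 2.41-fold lower (-1.31, SE 0.34, adjusted p = 0.00971). The Tcrg-C2 call ended without BCL11b-ID2+ library 2 or BCL11b-ID2- library 1 or 4 (adjusted p up to 0.0923), and with the compared groups alone (0.123).

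The variable segments were few in both gates but higher in BCL11b-ID2+ cells. Tcrg-V1 had 20.4, 29.2 and 41.3 normalised counts in BCL11b-ID2+ libraries and 4.88, 0.723 and 4.80 in BCL11b-ID2- libraries (log2 difference 2.95, SE 0.73, adjusted p = 0.00589). Tcrg-V5 had 26.3, 39.2 and 9.45 in BCL11b-ID2+ libraries and 2.44, 0.723 and 0.96 in BCL11b-ID2- libraries (3.32, SE 0.74, adjusted p = 0.00265). Tcrg-V4 had 11.4, 16.9 and 8.86 in BCL11b-ID2+ libraries and 0, 0 and 4.80 in BCL11b-ID2- libraries (2.85, SE 0.76, adjusted p = 0.0107). None of these 3 pairs of groups overlapped, yet the BCL11b-ID2- values lie at or below the floor of 3 reads or just above it, and the Tcrg-V4 call ended without BCL11b-ID2+ library 2 or BCL11b-ID2- library 1 or 2, with a pseudocount of 8 and with the compared groups alone (adjusted p up to 0.104). Tcrg-V6 had 0.599, 3.07 and 4.72 in BCL11b-ID2+ libraries and 0 reads in BCL11b-ID2- libraries, and did not pass (1.74, SE 0.80, adjusted p = 0.159). Altogether 4 segments rose and 2 fell, where limma called 15.9% of all genes, 8.82% higher and 7.03% lower.

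In the same comparison 6 of 12 receptor partner genes rose (median 1.38, all genes -0.01), among them Cd3g (6.14, adjusted p = 6.34e-11), the kinase gene Zap70 (4.39), Cd247 (4.11) and Trdv4, the delta segment known to pair with Tcrg-V5 and Tcrg-V6 chains (2.87, adjusted p = 0.0022). The delta constant gene Trdc was at 92.2, 43.0 and 57.9 in BCL11b-ID2+ libraries and at 52.4, 45.6 and 65.3 in BCL11b-ID2- libraries, with overlap. Of 16 rearrangement genes 2 rose and 5 fell (median -0.19), led by Rag2 (-4.82), Il7r (3.25), Xrcc6 (-2.67) and Runx1 (-2.21). Of 19 gamma-delta genes 8 rose and 5 fell (median 0.89), led by Tbx21 (7.22), Il2rb (6.98), Cd163l1 (6.14) and Ccr10 (5.58). Tbx21 and Il2rb are also genes of NK cells. Of 9 alpha-beta receptor genes 3 fell (median -0.60), namely Cd6, Trbc1 and Trbc2. All 6 NK markers rose, and their sum was 3485 to 4495 normalised counts in BCL11b-ID2+ libraries and 17.1 to 43.2 in BCL11b-ID2- libraries. Macrophage and granulocyte markers summed to 4.13 to 32.2 in BCL11b-ID2+ libraries, with Elane and Cd14 at 0, and 2019 to 3119 in BCL11b-ID2- libraries, with Cd14 at 0. Epithelial and stromal markers summed to 38.9 to 77.5 in BCL11b-ID2+ libraries, with Foxn1 and Krt8 at 0, and 630 to 885 in BCL11b-ID2- libraries. ILC2 markers summed to 923 to 1074 in BCL11b-ID2+ libraries and 165 to 255 in BCL11b-ID2- libraries, with Klrg1 at 0. The B-lineage genes Ebf1, Pax5, Cd79a and Cd79b fell, and so did Pdgfrb and Col1a1 of the stroma. The part of these markers in the segment differences was not tested.

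Of the ID2-negative gates of E19.5, BCL11b+ID2- cells had more of every segment than BCL11b-ID2- cells, and no library of one gate overlapped the other. Tcrg-V4 was 270-fold higher (log2 difference 7.89, SE 0.76, adjusted p = 1.1e-07). That ratio rests on 5 reads in BCL11b-ID2- cells, all in library 4, and has a 95% counting interval of 116 to 830.2. Also, Tcrg-V6, at 0 reads in BCL11b-ID2- libraries, was at least 68.4-fold higher. Tcrg-V1 was 24.8-fold higher (4.47) and Tcrg-V5, with 4 reads in BCL11b-ID2- cells, 14.3-fold higher (interval 5.6 to 52.6; 3.19, adjusted p = 0.0042). Tcrg-C2 was 27.3-fold higher (4.81, adjusted p = 1.1e-09), Tcrg-C4 19.2-fold (4.52) and Tcrg-C1 5.27-fold (2.44, adjusted p = 2.88e-08). All 7 were called, where limma called 14.9% of genes, 7.51% higher and 7.42% lower, and all 7 calls held with any 1 library left out. Beside them 11 of 12 receptor partner genes rose (median 4.97, all genes -0.05), led by Trdv5 (7.04), Cd247 (6.74), Trdc (5.75) and Zap70 (5.73). So did 14 of 19 gamma-delta genes (median 4.48), among them 5830411N06Rik (10.11), Blk (5.87) and Cd163l1 (5.69), and 6 of 9 alpha-beta receptor genes (median 1.53), led by Cd8a (4.52) and Trac (4.04). Of 16 rearrangement genes 4 rose and 2 fell (median 0.36), with Lig4 at 3.36 and Rag2 at -2.71. The B-lineage genes Pax5, Cd79a and Ebf1 fell in BCL11b+ID2- cells, as did Mpo, Lyz2, Csf1r and Elane of the macrophage and granulocyte markers. Mcpt8 and Hbb-bt fell among 5 mast cell and erythroid markers. Of 4 tested epithelial and stromal markers Pdgfrb fell and Epcam rose. Rora and Gata3 rose and Il1rl1 fell among 6 ILC2 markers, and Prf1 rose among 6 NK markers. The part of these markers was not tested.

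Between the ID2-positive gates of E19.5, Tcrg-C1 had the largest difference of the 7 segments. It was at 1494 to 1577 normalised counts in BCL11b+ID2+ libraries and 99.2 to 125 in BCL11b-ID2+ libraries, 13.9-fold higher (log2 difference 3.8, SE 0.22, adjusted p = 6.85e-11). Tcrg-C2 was 4.48-fold higher (2.22, SE 0.34, adjusted p = 0.000143), and Tcrg-V6 was 9.38-fold higher (2.76, SE 0.80, adjusted p = 0.0409). The Tcrg-V6 call held with BCL11b+ID2+ library 4 left out and ended with any other of the 6 libraries left out (adjusted p 0.0182 to 0.203). It also ended with a pseudocount of 8, with no filter and with the compared groups alone (adjusted p up to 0.122). Tcrg-C4 did not pass (-0.56, SE 0.54, adjusted p = 0.747), although every BCL11b+ID2+ library was under every BCL11b-ID2+ library. Tcrg-V1, Tcrg-V4 and Tcrg-V5 overlapped between the gates. The 3 calls were all higher, where limma called 6.03% of genes, 3.16% higher and 2.88% lower. Receptor partners were split, with Cd3e (2.43), Trdc (2.43) and Lat higher and Lck (-1.39) and Cd3g (-1.33) lower (median 0.26, all genes -0.04). In the gamma-delta list 6 of 19 rose and 3 fell (median 0.62), with Ccr6 at 7.28, Il23r at 5.44 and Blk at 4.22, against Tbx21 at -6.60. Il7r (1.60) and Runx1 (1.41) rose among 16 rearrangement genes (median 0.73), and Cd6 (2.79) rose among 9 alpha-beta receptor genes (median 1.01). Of the 6 NK markers 5 fell, with the sums of these gates at 151 to 193 in BCL11b+ID2+ and 3485 to 4495 in BCL11b-ID2+ libraries, and their part was not tested. Il1rl1, Icos, Rora and Gata3 rose among the 6 ILC2 markers, whose sums were 6390 to 7504 in BCL11b+ID2+ and 923 to 1074 in BCL11b-ID2+ libraries. Csf1r rose among the macrophage and granulocyte markers (177 to 360 in BCL11b+ID2+ and 4.13 to 32.2 in BCL11b-ID2+ libraries), Cd79b of the B lineage rose, and Cpa3 and Mcpt8 fell among the mast cell and erythroid markers. The part of these was not tested either.

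In BCL11blowID2low cells, sorted at E19.5 alone, Tcrg-V6 was per kilobase the highest of the 4 chosen variable segments in each library. Their libraries had 315, 423 and 425 normalised counts of Tcrg-V6, against 50.3, 111 and 36.9 in BCL11b+ID2- libraries, 5.85-fold higher with no overlap (log2 difference 2.68, SE 0.80, adjusted p = 0.0458). Tcrg-V4 had 71.4, 31.3 and 67.8 in BCL11blowID2low libraries, against 531, 428 and 335 in BCL11b+ID2- libraries, 7.59-fold lower (-2.97, SE 0.76, adjusted p = 0.019). Both calls are narrow. That of Tcrg-V6 held in 1 of 6 omissions, without BCL11b+ID2- library 2 (adjusted p 0.0437 to 0.136 over the 6), and ended with no filter on low values. That of Tcrg-V4 ended without BCL11b+ID2- library 1 or 2 or BCL11blowID2low library 2 (0.0295 to 0.081).

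The other 5 segments passed no test between these gates. Tcrg-V1 had 224, 85 and 79.9 normalised counts in BCL11blowID2low libraries and 98.9, 73.9 and 84.9 in BCL11b+ID2- libraries (log2 difference 0.43, adjusted p = 0.796). Tcrg-V5 had 21.6, 17.9 and 17.8 in BCL11blowID2low libraries and 17.4, 21.4 and 20.3 in BCL11b+ID2- libraries (-0.04, SE 0.74). Tcrg-C1 had 2008, 2164 and 2087 in BCL11blowID2low libraries (0.16, SE 0.22), Tcrg-C4 had 1039, 1053 and 798 (-0.04, SE 0.54), and Tcrg-C2 had 845, 1435 and 1115, under every BCL11b+ID2- library without passing (-0.66, SE 0.34, adjusted p = 0.269). So 1 segment rose and 1 fell, where limma called 6.91% of genes, 3.06% higher and 3.85% lower.

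The delta chain segments had a matching order. Trdv4 had 442, 684 and 608 normalised counts in BCL11blowID2low libraries, against 41.7, 176 and 74.7 in BCL11b+ID2- libraries (log2 difference 2.78, adjusted p = 0.00783). Trdv5 had 4.98, 1.12 and 5.65 in BCL11blowID2low libraries, against 159.7, 137 and 102 in BCL11b+ID2- libraries (-4.91, adjusted p = 0.00168). These were the only 2 of 12 receptor partner genes called (median -0.17, all genes -0.06). Of 19 gamma-delta genes 6 rose and 5 fell (median -0.07), led by Etv5 (-5.10), Ccr10, the receptor for a skin chemokine (4.69), 5830411N06Rik (-4.15) and Il23r, the interleukin-23 receptor gene (4.09). Il7r rose (1.90) and Lig4 fell (-3.57) among 16 rearrangement genes (median 0.23), and Trbc1 (-1.05) and Trbc2 (-0.98) fell among 9 alpha-beta receptor genes (median -0.98). NK markers summed to 12.1 to 128 in BCL11blowID2low libraries, with Ncr1 at 0, and 15.7 to 55.5 in BCL11b+ID2- libraries. Limma called 0 of the 6 NK markers (2 at an unadjusted p under 0.05), edgeR 1 and DESeq2 2. Macrophage and granulocyte markers summed to 48.1 to 147 in BCL11blowID2low libraries and 3.21 to 5.53 in BCL11b+ID2- libraries, with Elane at 0 in both. Mast cell and erythroid markers summed to 51.4 to 73 in BCL11blowID2low libraries, with Mcpt8 and Gata1 at 0, and 657 to 1008 in BCL11b+ID2- libraries, and the part of these lists was not tested.

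Against BCL11b-ID2- cells, all 7 segments rose in BCL11blowID2low cells, where limma called 14% of genes, 6.7% higher and 7.35% lower. Tcrg-V6 was at least 400-fold higher, Tcrg-V1 37.4-fold, Tcrg-V4 35.5-fold, Tcrg-C4 18.8-fold, Tcrg-C2 17.6-fold, Tcrg-V5 13.9-fold and Tcrg-C1 5.89-fold, and no groups overlapped. The same few reads of BCL11b-ID2- cells give counting intervals of 15.2 to 109 for Tcrg-V4 and 5.42 to 50.9 for Tcrg-V5, and without BCL11blowID2low library 1 Tcrg-V1 was 23.8-fold higher. Of 12 receptor partner genes 10 rose (median 4.87, all genes -0.14), led by Cd247 (6.92), Trdv4 (6.59), Zap70 (5.90) and Cd3e (5.73). Among 19 gamma-delta genes 13 rose and 2 fell (median 4.3), among them Il23r (8.59), Cd163l1 (7.32) and Ccr10 (6.39). Cd6, Cd8a and Trac rose among 9 alpha-beta receptor genes (median 1.61), and of 16 rearrangement genes Il7r (3.47) and Il2rg (1.26) rose while Xrcc6 (-2.48) and Rag2 (-2.37) fell (median 0.30). Of 5 tested macrophage and granulocyte markers Mpo, Elane and Lyz2 fell, with sums of 48.1 to 147 in BCL11blowID2low and 2019 to 3119 in BCL11b-ID2- libraries. The B-lineage genes Ebf1 and Pax5 fell, as did Mcpt8, Hbb-bt and Cpa3 of 5 mast cell and erythroid markers and Pdgfrb and Col1a1 of 4 tested stromal ones, and their part was not tested. This comparison shares its BCL11b-ID2- libraries with other comparisons above.

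DN2 cells at E19.5 had constant gene RNA almost without variable segment RNA. Tcrg-C1 had 2218, 3479 and 3818 normalised counts in DN2 libraries, against 1748, 2049 and 1799 in BCL11b+ID2- libraries, 1.70-fold higher (log2 difference 0.73, SE 0.22, adjusted p = 0.0217). This call ended without DN2 library 2 or 4 or BCL11b+ID2- library 1 or 4 (adjusted p up to 0.126), and with the compared groups alone (0.0513). Tcrg-C2 had 1990.1, 2208 and 2281 in DN2 libraries and 2015, 1763 and 1502 in BCL11b+ID2- libraries, with overlap (0.30, SE 0.34, adjusted p = 0.614). Tcrg-C4 had 18.4, 131 and 135 in DN2 libraries, against 972, 971 and 1006 in BCL11b+ID2- libraries, 10.4-fold lower (-3.8, SE 0.54, adjusted p = 2.56e-05).

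Tcrg-V4 had 2.83, 9.99 and 4.36 normalised counts in DN2 libraries, 75.4-fold under BCL11b+ID2- libraries (log2 difference -6.13, SE 0.76, adjusted p = 4.42e-06). Tcrg-V1 had 3 reads in all DN2 libraries together, so that the ratio of 125-fold lower has a 95% counting interval of 42.8 to 607, and Tcrg-V6 had 1 read, with a ratio of 298 (53.5 to 11781). Both were called (adjusted p = 5.51e-06 and 2.54e-05). Tcrg-V5 had 8.48, 4.66 and 5.09 in DN2 libraries, under every BCL11b+ID2- library, and did not pass (-1.58, SE 0.74, adjusted p = 0.159). So 1 segment rose and 4 fell, where limma called 16.2% of genes, 6.77% higher and 9.41% lower.

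In the same comparison 10 of 12 receptor partner genes fell, led by Zap70 (-6.88), Trdv4 (-6.37), Trdv5 (-6.16) and Cd247 (-4.31), and the kinase gene Lck rose (1.12). The median was -2.88, against -0.01 over all genes. Of 16 rearrangement genes 5 rose and 3 fell (median 0.11), led by Rag2 (4.15), Rag1 (1.66), Jak3 (-1.62) and Dclre1c (-1.53). Rag2 had 558, 521 and 384 normalised counts in DN2 libraries, against 46.9, 17.1 and 22.1 in BCL11b+ID2- libraries. Of 19 gamma-delta genes 16 fell (median -4.77), among them Blk (-7.61), Id3 (-7.38) and 5830411N06Rik (-7.36). Of 9 alpha-beta receptor genes 7 fell, led by Cd8a (-6.33), Cd6 (-6.20), Trac (-5.73) and Cd8b1 (-4.28), and Ptcra, the partner of the beta chain before alpha rearrangement, rose (4.09, adjusted p = 0.0208; list median -3.94). NK markers summed to 1.41 to 2.91 in DN2 libraries, with Ncr1 and Prf1 at 0, and 15.7 to 55.5 in BCL11b+ID2- libraries. Macrophage and granulocyte markers summed to 182 to 302 in DN2 libraries and 3.21 to 5.53 in BCL11b+ID2- libraries, and the part of either list was not tested.

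Shares and ratios per kilobase draw these E19.5 levels together. Tcrg-C4 took 0.406, 2.11 and 2.03% of the 3 constant genes in DN2 libraries, 25.4, 21.5 and 18.9% in BCL11blowID2low libraries, 23, 17.3 and 18.6% in BCL11b+ID2+ libraries and 19.4, 19.2 and 22.2% in BCL11b+ID2- libraries. It took 79.1, 81.1 and 83.3% in BCL11b-ID2+ libraries, against 16.9, 2.72 and 13% in BCL11b-ID2- libraries. The BCL11b-ID2+ gate alone had Tcrg-C4 as its major constant gene, in every library. Tcrg-C2 took 40.8 ± 5.7% in DN2 cells, 27.4 ± 4.71% in BCL11blowID2low cells, 5.88 ± 1.32% in BCL11b+ID2+ cells, 38.9 ± 4.03% in BCL11b+ID2- cells, 3.74 ± 1.82% in BCL11b-ID2+ cells and 14.5 ± 6.39% in BCL11b-ID2- cells (SD, n = 3 each). On average the Tcrg-C2 share was lowest in both ID2-positive gates. Its level was not: per kilobase it averaged 131 normalised counts in BCL11b+ID2+ cells and 70.5 in BCL11b-ID2- cells.

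Among the 4 variable segments, Tcrg-V6 took 47.3, 73.8 and 70.2% in BCL11blowID2low libraries, against 7.06, 17.2 and 7.51% in BCL11b+ID2- libraries. Tcrg-V4 took 10.6, 5.44 and 11.2% in BCL11blowID2low libraries, against 74.2, 65.8 and 67.8% in BCL11b+ID2- libraries. No segment of the 4 led in all BCL11b+ID2+ libraries, with Tcrg-V1 at 28.4, 35.0 and 30.3% and the others between 16.7 and 33.9%. In BCL11b-ID2+ libraries Tcrg-V5 took 48.3, 47.9 and 16.3% and Tcrg-V1 34.1, 32.5 and 65.0%. Shares in DN2 and BCL11b-ID2- libraries rest on a few reads and are not given. These leads hold among the 4 alone. With all annotated variable segments counted, Trgv2 took 40.4, 40.8 and 43% in BCL11b+ID2- libraries, above Tcrg-V4 at 36.8, 33 and 32.2%. In BCL11blowID2low libraries Tcrg-V6 took 29.1, 42.3 and 43.8% and Trgv2 took 34.3, 38.9 and 31.2%, so that Trgv2 led in the first of them, and in BCL11b+ID2+ libraries Tcrg-V7 led at 27, 36.4 and 38.5%.

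Per 100 of constant gene RNA, the variable segments came to 0.585 ± 0.16 in DN2 cells, 32.8 ± 5.41 in BCL11blowID2low cells, 9.78 ± 4.18 in BCL11b+ID2+ cells, 29.3 ± 3.98 in BCL11b+ID2- cells, 24.2 ± 5.6 in BCL11b-ID2+ cells and 3.53 ± 2.46 in BCL11b-ID2- cells. For these 4 segments BCL11blowID2low, BCL11b+ID2- and BCL11b-ID2+ cells did not separate beyond their spread, and each of their libraries was above every library of the other groups. With all annotated variable and constant genes counted, the ratio was 0.612 to 3.37 in DN2, 47 to 61.5 in BCL11blowID2low, 52.8 to 66.1 in BCL11b+ID2- and 24.7 to 31.1 in BCL11b-ID2+ libraries. On that count every BCL11b-ID2+ library lay under every BCL11blowID2low and BCL11b+ID2- library.

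**Figure D4:**
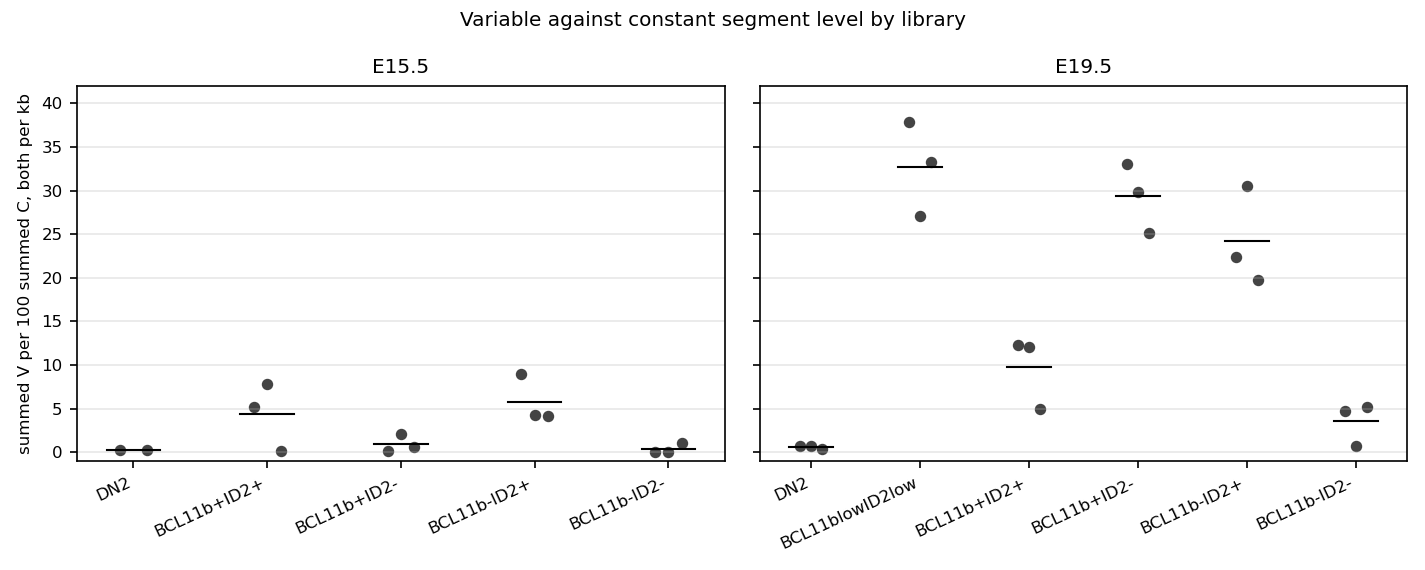
Summed Tcrg-V1, Tcrg-V4, Tcrg-V5 and Tcrg-V6 per 100 of summed Tcrg-C1, Tcrg-C2 and Tcrg-C4, each scaled by transcript length, for every library (points) and group (mean, short line) at E15.5 and E19.5. At E19.5 DN2 libraries lay between 0.401 and 0.685 and BCL11b+ID2- libraries between 25.1 and 33.1.

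The rest of the locus fills in the clusters, as levels with no test. Trgv2, the partner of Tcrg-C2 and a near copy of Tcrg-V1, had 429.9, 449.5 and 350.3 normalised counts in BCL11blowID2low libraries and 672, 611 and 516 in BCL11b+ID2- libraries at E19.5, and 40.6 or less in the other gates. Trgj2, the joining segment of that cluster, had 185, 131 and 140.3 in DN2 libraries and 26.0, 85.7 and 36.0 in BCL11b+ID2- libraries. Tcrg-C3 had 155, 77.2 and 103 in DN2 libraries and 24.3, 45.0 and 11.1 in BCL11b+ID2- libraries. Tcrg-V7 was at 109, 65.3 and 74.7 in BCL11b+ID2- libraries and 49.9, 61.9 and 42.9 in BCL11b+ID2+ libraries, the highest groups for it at E19.5. At E15.5 it was at 0.683 in one DN2 library and 1074 in the other, so the libraries of 1 group can differ widely in a single segment.

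The interaction asks whether the ID2 difference was the same in BCL11b-positive as in BCL11b-negative cells, as the difference of BCL11b+ID2+ minus BCL11b+ID2- less that of BCL11b-ID2+ minus BCL11b-ID2-. At E19.5 it was -7.46 for Tcrg-V4 (SE 1.07, adjusted p = 6.92e-05), -5.07 for Tcrg-C4 (SE 0.76, adjusted p = 0.000116), -4.78 for Tcrg-V1 (SE 1.03, adjusted p = 0.00398) and -3.66 for Tcrg-V5 (SE 1.05, adjusted p = 0.0284). It was -2.58 for Tcrg-C2 (SE 0.48, adjusted p = 0.00116) and 1.36 for Tcrg-C1 (SE 0.30, adjusted p = 0.00555), and for Tcrg-V6 -3.15 did not pass (adjusted p = 0.0875). So for 6 of 7 segments the ID2 difference was unlike between the BCL11b-positive and BCL11b-negative gates, 5 downwards and 1 upwards. Here limma called 9.28% of genes, 4.7% lower and 4.57% higher. Tcrg-V1, Tcrg-V4 and Tcrg-V5 lie at or near the counting floor in BCL11b-ID2- cells, which enter each value. The Tcrg-V5 call ended in 7 of 12 omissions (adjusted p up to 0.0855), and the other 5 held in all 12. At E15.5, limma called 0 segments (1 at an unadjusted p under 0.05), edgeR 0 and DESeq2 1, with 0% of all genes called by limma. Tcrg-C4 was at -2.00 there (SE 1.88, adjusted p = 0.939). The stages were not tested against each other.

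**Figure D5:**
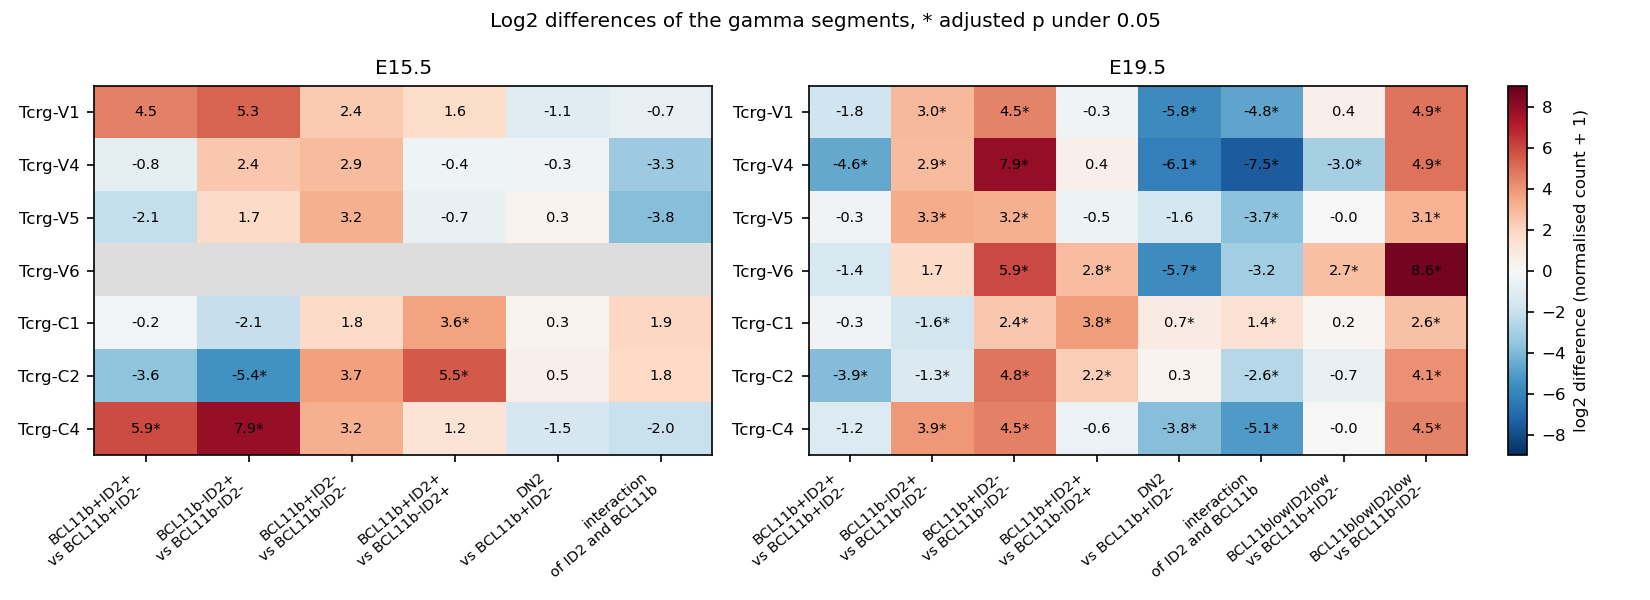
Heat map of the log2 differences of the gamma segments (rows) in each comparison (columns) at E15.5 and E19.5, red for higher and blue for lower, with the value in each cell, an asterisk for an adjusted p under 0.05 and grey where a segment was not tested. At E19.5 Tcrg-C4 was at -1.21 in BCL11b+ID2+ against BCL11b+ID2- cells and at 3.87 in BCL11b-ID2+ against BCL11b-ID2- cells.

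Of the gene lists, 11 of 12 receptor partner genes had a lower interaction (median -3.36, all genes 0.01), led by Cd247 (-6.89), Trdv5 (-6.80), Cd3g (-6.59) and Zap70 (-5.65). Of 19 gamma-delta genes 10 were lower and Ccr6 was higher (median -2.78), led by 5830411N06Rik (-10.56), Il2rb (-6.38), Tbx21 (-6.08) and Cd163l1 (-5.88). Rag2 (4.16) and Runx1 (1.64) were higher and Dclre1c (-1.99) and Il2rg (-0.86) lower among 16 rearrangement genes (median 0.21), and Cd8a (-3.28) was lower among 9 alpha-beta receptor genes (median -0.57). All 6 NK markers had a lower interaction and 5 of 5 tested macrophage and granulocyte markers a higher one, and their part in the segment values was not tested.

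Likeness over the libraries of a stage is given as Pearson correlations of log2(value + 1) and as a description alone, since libraries of a group and reads of near copies are shared. Tcrg-C1 and Tcrg-C2 went together (r = 0.92 over 14 libraries at E15.5, 0.87 over 18 at E19.5), and Tcrg-C4 went with Tcrg-V1 (0.74 and 0.92). At E19.5 Tcrg-C4 was also at 0.82 with Tcrg-V5, 0.80 with Tcrg-V4 and 0.77 with Tcrg-V6. Tcrg-C1 and Tcrg-C4 were at -0.18 and 0.06. Outside the locus, the genes most like Tcrg-C4 at E15.5 were Gm47050 (0.95), Ikzf3 (0.95), Cd163l1 (0.94), Tnfaip3 (0.93) and Cd200r1 (0.92), and those most like Tcrg-V1 were Cd163l1 (0.91), Rora (0.90), Wdr44, Sox5 and Arntl. Those most like Tcrg-C1 were Dpp4 (0.91), Enah, Serbp1, Hmgn1 and Luc7l3, and those most like Tcrg-C2 were Cd24a (0.89), Marcks, Hspd1, Hsph1 and Akap11. The sparse Tcrg-V4 was most like Sirt1 (0.86), Grap2, Kif21b, Fbxo28 and Timm8b, and Tcrg-V5 most like Cdkn2aip (0.86), Virma, Nrbp1, Zfp617 and Mrpl33.

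At E19.5 the genes most like Tcrg-V6 were Il23r (0.93), Pdcd1 (0.93), Podnl1 (0.92), A130023I24Rik (0.92) and Vdr (0.89). Tcrg-V4 was most like Cd164 (0.92), Trdv2-2 (0.91), Ifngr1, Lef1 and Sh3kbp1, Tcrg-V1 most like Chd7 (0.96), Mturn, Zap70 (0.93), Ckb and Lingo4, and Tcrg-V5 most like Sept1 (0.91), Cdon, Ets1, Kbtbd11 and Cdkn2c. For the constant genes these were Atp8a1 (0.90), Car13, Gtf3c3, Gm5864 and Bcl11b (0.84) for Tcrg-C1, Fam169b (0.93), Hjurp, Car13, Mpp4 and Calm3 for Tcrg-C2, and Glcci1 (0.94), Slc37a3, Ppp2r5c, Itgal and Rab8a for Tcrg-C4.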

How the data were processed

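Total RNA of flow-sorted cells was extracted with an RNeasy Plus micro kit, amplified with the Ovation RNA-seq System V2, sheared on a Covaris M220 and barcoded with an Ovation Ultralow system, per the labels. Per the submitters' processing notes, Trim Galore 0.50, STAR 2.6.0a, DESeq2 1.18.1 and the build GRCm38 were used. The deposited signal values are DESeq-normalised read counts in 1 table per stage. Dividing each column by the value of 1 read gave whole reads for 100% of values (tolerance 0.01 reads). Columns of E15.5 were matched to samples by barcode number.

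Tests used limma 3.58.1 (R 4.3.3) on log2(value + 1), a scale that understates differences of low genes, with all groups of a stage in 1 fit and genes of at least 10 in at least 3 libraries, which left 10289 of 19404 and 13840 of 26244. P-values were adjusted by Benjamini-Hochberg within each of 14 comparisons (threshold 0.05), and every adjusted p is from this fit unless another tool is named. Alternatives were a pseudocount of 8, no filter, TMM scaling, edgeR 4.0.16, DESeq2 1.42.0 on the recovered reads, a replicate block, fits of the compared groups alone, and leaving out each library. The fits were tested on simulated data.

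Folds are ratios of means. Shares and the V to C ratio divide values by transcript length (GENCODE M21) and carry no test. Sequences were read from the GENCODE M21 transcripts. Replicate numbers were taken from the labels.

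The members, the 4 gene lists and the marker lists were chosen with earlier results of these data known. From a list, up to 4 called genes per comparison are named by size of difference (1 gene that this rule would name is not reported here), and the few genes of a lone direction named beyond that were picked after their values were seen. For each segment the 5 genes with the highest correlation are named.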

Additional observations from a re-analysis of the deposited data

Results flagged for a closer look

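For 6 segments the ID2 difference at E19.5 differed between BCL11b-positive and BCL11b-negative cells by a test of the difference itself. The values, on the log2 scale, were -4.78 for Tcrg-V1, -7.46 for Tcrg-V4, -3.66 for Tcrg-V5, 1.36 for Tcrg-C1, -2.58 for Tcrg-C2 and -5.07 for Tcrg-C4. Tcrg-C4 and Tcrg-V4 point in opposite directions in the BCL11b states, at -1.21 and -4.61 among BCL11b-positive and 3.87 and 2.85 among BCL11b-negative cells. The -1.21 of Tcrg-C4 did not pass (adjusted p = 0.198). Tcrg-V1 (-1.82 and 2.95) and Tcrg-V5 (-0.34 and 3.32) also had opposite signs, without passing in the BCL11b-positive state. Tcrg-C1 and Tcrg-C2 had negative ID2 differences in both BCL11b states, at -0.29 and -3.89 among BCL11b-positive and -1.65 and -1.31 among BCL11b-negative cells. The BCL11b-ID2- gate enters each of these values, and Tcrg-V1, Tcrg-V4 and Tcrg-V5 lie at or near the counting floor there.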

How the results depend on the processing

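No called segment changed direction in any alternative that tested it. At E15.5 the number of segments called in BCL11b+ID2+ against BCL11b+ID2- cells was 1, and 0 with no filter, 0 with the compared groups alone and 0 to 1 with a library left out. In BCL11b-ID2+ against BCL11b-ID2- cells it was 2, and 1 with no filter, 1 with the compared groups alone and 0 to 1 with a library left out. Between the ID2-positive gates it was 2, and 1 with no filter, 0 with the compared groups alone and 0 to 2 with a library left out. DESeq2 called 3 in BCL11b+ID2- against BCL11b-ID2- cells and 1 in the interaction, where limma called 0. At E19.5 the 2 calls in BCL11blowID2low against BCL11b+ID2- cells were 1 with no filter and 0 to 1 with a library left out. The cause was not tested. The other counts of segments stayed within 1.5 times. Same-number deviations correlated at -0.0161 to 0.0388 over 14 pairs at E15.5 and at 0.00202 to 0.129 over 21 at E19.5. Any pairing by replicate number was thus weak, though the E19.5 values were all positive. The replicate block changed no segment call, with 1 call in BCL11b+ID2+ against BCL11b+ID2- cells at E15.5 and 2 at E19.5. Over all genes at E15.5, limma called 74 in BCL11b+ID2+ against BCL11b+ID2- cells, 21 with no filter, 2 with the compared groups alone, 1084 by DESeq2 and 15 to 79 with a library left out. It called 48 in BCL11b-ID2+ against BCL11b-ID2- cells, 28 with no filter, 414 by DESeq2 and 4 to 15 with a library left out, and 8 between the ID2-positive gates, with 19 at a pseudocount of 8, 5 with no filter, 0 with the compared groups alone, 643 by DESeq2 and 4 to 8 with a library left out. It called 1 gene in BCL11b+ID2- against BCL11b-ID2- cells, 0 in each of the other settings except DESeq2 (340) and omissions (0 to 6). DN2 against BCL11b+ID2- cells and the interaction had 0 by limma and edgeR, with 663 and 662 at an unadjusted p under 0.05, 532 and 377 by DESeq2, and 0 to 3 and 0 to 1 with a library left out. At E19.5, BCL11blowID2low against BCL11b+ID2- cells had 957, and 298 with these groups alone and 494 without BCL11b+ID2- replicate 1. TMM scaling put the median log2 difference of all genes in BCL11b+ID2- against BCL11b-ID2- cells at E15.5 at -0.42, against -0.32. Few reads limit the variable segments at E15.5, where a value of 0 allows up to 4.91 normalised counts.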
